A study of Rattus norvegicus with 12 samples.

Results

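The D-type cyclins Ccnd1, Ccnd2 and Ccnd3, their partner kinases Cdk4 and Cdk6, the growth regulator Myc and the inhibitors Cdkn1a, Cdkn1b, Cdkn1c and Cdkn2b were followed in the rat mammary gland. They were selected by gene name from the platform annotation, and all 10 were present, with 14 of the 31099 probe sets, among 14217 measured genes. Ccnd1 had 3 probe sets, Cdkn1a and Cdkn1b had 2 each and the other 7 genes had 1 each. Female Sprague-Dawley rats ate soy protein isolate or casein from postnatal day 30 to day 64. All were ovariectomized on day 50, which removes the ovarian estrogen source, and then received 17β-estradiol (E2) from an implanted pump or vehicle for 14 days. Whole abdominal mammary gland RNA was measured on 12 Affymetrix arrays of pooled samples, 3 per group, in the groups soy plus E2, casein plus E2, soy and casein. The label of the casein plus E2 group names only E2, and its diet follows from the treatment protocol. The labels do not say how many rats a pool held or that pools of a group held different animals. The p-values thus reflect how pools varied, which may be technical.

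Cells enter the division cycle when D-type cyclins bind Cdk4 or Cdk6 and the complex phosphorylates the retinoblastoma protein, which then releases E2F transcription factors to switch on genes of DNA replication. Myc promotes growth and cell cycle entry, Cdkn1a (p21), Cdkn1b (p27) and Cdkn1c (p57) restrain cyclin-kinase complexes, and Cdkn2b (p15) binds Cdk4 and Cdk6 directly. In mice, cyclin D1 is needed for full alveolar development of the mammary gland in pregnancy, and in human breast cancer cells estrogen raises CCND1 and MYC transcripts.

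Every value below is a log2 value centred on the median of its probe set over the 12 arrays. It therefore shows how arrays differ for a gene and carries no level, so genes cannot be ranked by abundance and detection could not be judged. The arrays of pools 2 and 3 of casein plus E2 differed by less than any other 2 arrays did: the SD of their difference over all probe sets was 0.163, against 0.301 or more in the 65 other pairs. Their mean entered as 1 sample, which leaves n = 2 in casein plus E2 beside n = 3 in each other group, and these few arrays set the precision. Casein pool 3 held liver transcripts (mean of 11 liver genes 5.91, at most 0.30 elsewhere). Casein pool 2 and soy pool 2 held the most skeletal muscle transcripts (means of 11 genes 3.63 and 3.86). Casein pool 1 came next (1.73), and every other sample was at 0.64 or lower. Added bacterial control transcripts were high on soy plus E2 pool 2, casein plus E2 pool 1, soy pool 1 and all casein arrays, and low on the others, and casein pool 2 stood apart (mean 1.113, at most 0.261 on any other array). In the whole gland, fewer cells of a type and less RNA per cell cannot be told apart.

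For the E2 effect averaged over both diets, 2 of the 10 genes were called. Ccnd1 rose, with a call at the edge of the threshold, and Ccnd2 fell, so that 2 cyclins of the same family moved in opposite directions. A gene was called where its limma Benjamini-Hochberg adjusted p, taken over all 14217 genes, was under 0.05. Of all genes 12.2% were called in this contrast (6.73% higher and 5.51% lower), beside 2 of 10 here (1 higher and 1 lower). With so few genes, this count was near that background. At an unadjusted p under 0.05 there were 6 of the 10 and 29% of all genes. The median change of the 10 genes was 0.09 and that of all genes 0.00423 (log2). The samples with E2 lay entirely apart from those without for 1 of the 10, Ccnd2, and for 6.88% of all genes.

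**Figure D1:**
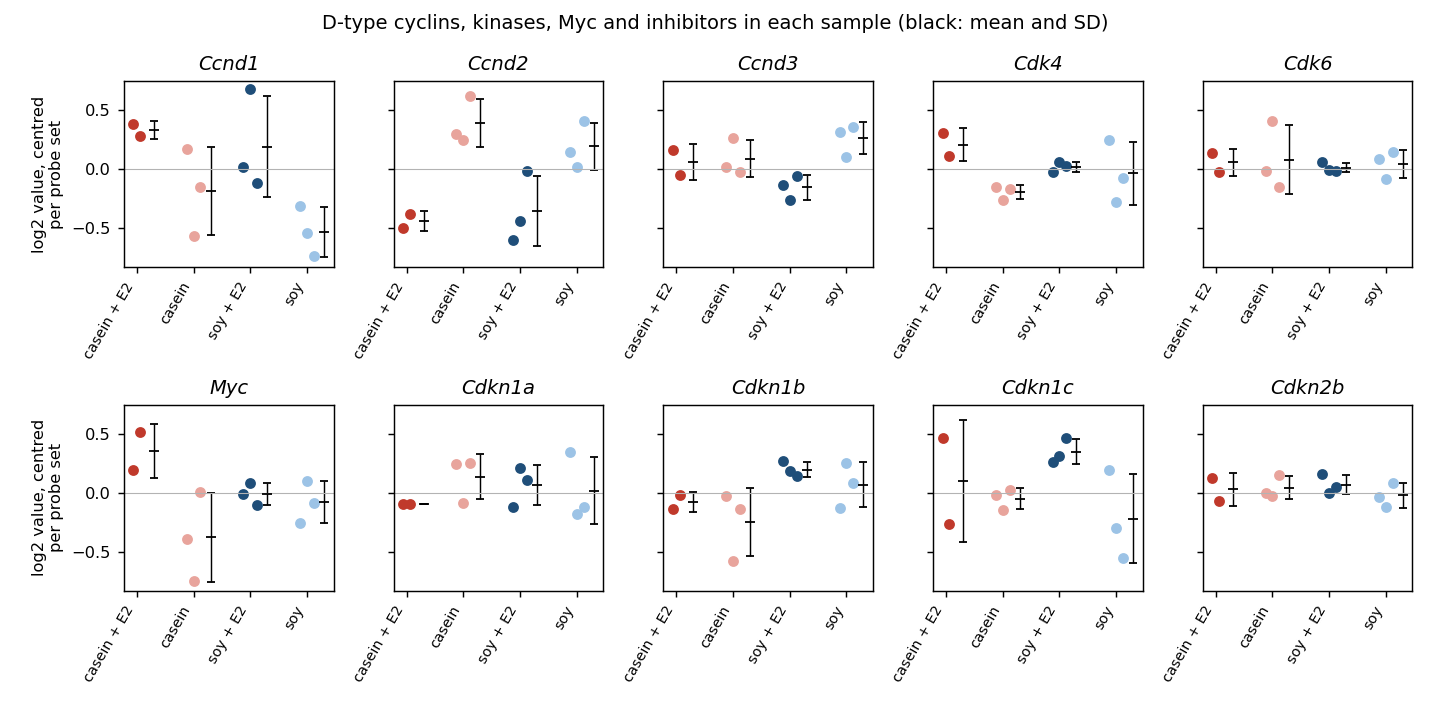
Centred log2 value of each of the 10 genes in 11 samples, by group, with coloured points for samples and black bars for the group mean and SD (n = 2 for casein + E2, n = 3 for the others). Ccnd2 is the gene whose E2 samples all lie below all samples without E2 (at most -0.02 against at least 0.02).

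Ccnd2 encodes cyclin D2, a cyclin prominent in ovarian granulosa cells and B lymphocytes. Its value was -0.50 and -0.38 in the casein plus E2 samples, against 0.29, 0.25 and 0.62 in the casein pools. In soy-fed rats it was -0.60, -0.44 and -0.02 in soy plus E2 pools 1, 2 and 3, against 0.15, 0.02 and 0.41 in soy pools 1, 2 and 3. No E2 sample reached the lowest sample without E2, and soy plus E2 pool 3 came within 0.04 of it. The E2 effect averaged over the diets was -0.68 ± 0.13 (log2 change ± SE, adjusted p = 0.0141 in limma), with -0.82 ± 0.19 in casein-fed rats and -0.54 ± 0.17 in soy-fed rats. Neither diet passed on its own in limma (adjusted p = 0.0537 in casein and 0.134 in soy). Without soy plus E2 pool 3 both passed in limma (adjusted p = 0.0266 in casein and 0.0368 in soy), as they did with array weights (0.0199 and 0.0483). Those settings also called more of all genes, 590 and 760 without that pool and 1408 and 2034 with array weights, against 346 and 31. Among arrays with high bacterial controls the E2 difference was -0.885 in casein (1 array with E2 against 3 without) and -0.587 in soy (1 against 1). Among those with low controls it was -0.523 in soy (2 against 2), and no casein array without E2 was low. These within-split differences rest on so few arrays that they have no test.

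The fall in Ccnd2 stood beside lower markers of several cell types. Of 11 adipocyte markers 10 fell with E2, and their mean lay between -1.54 and 0.06 in E2 samples and between 0.03 and 0.92 without E2. Of 8 endothelial markers 4 fell (means between -0.64 and 0.09 with E2, and between 0.02 and 0.36 without), as did 5 of 6 mast cell markers (between -1.34 and -0.22 with E2, and between 0.24 and 0.91 without). No lymphocyte marker of 8 passed in limma (means between -1.12 and 1.49 with E2, and between -1.74 and 2.41 without). Soy plus E2 pool 3, with the highest Ccnd2 among E2 samples, also had the highest adipocyte and mast cell means among them. The part of these cell types in the Ccnd2 change was not tested. The call was lost without casein plus E2 pool 1 (adjusted p = 0.0617, log2 change -0.66, with 1 sample left in that group and assumed to vary like the others). It was also lost, at a log2 change of -0.68, without the 3 arrays rich in liver or muscle transcripts. Only casein pool 1 was then left of the casein arrays, so this loss cannot be tied to those transcripts.

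Ccnd1 encodes cyclin D1, the D-type cyclin best known in mammary epithelium. Its value was 0.38 and 0.28 in the casein plus E2 samples, against 0.17, -0.57 and -0.15 in casein pools 1, 2 and 3. It was 0.02, 0.67 and -0.12 in soy plus E2 pools 1, 2 and 3, against -0.31, -0.54 and -0.74 in soy pools 1, 2 and 3. The E2 samples lay above their own diet's samples without E2 in both diets, but soy plus E2 pools 1 and 3 lay below casein pool 1, so the pooled sets overlapped. The average E2 effect was 0.62 ± 0.18 and passed at the edge of the threshold (limma adjusted p = 0.0495). It was 0.51 ± 0.26 in casein-fed rats (adjusted p = 0.321) and 0.72 ± 0.23 in soy-fed rats (adjusted p = 0.144), and neither passed on its own. The soy effect passed with array weights (0.77, adjusted p = 0.0322). Without casein pool 2 the casein effect was 0.32, and without soy plus E2 pool 2 the soy effect was 0.48.

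The 3 Ccnd1 probe sets pointed the same way with different sizes. Their average E2 effects were 0.78 ± 0.21 for 1383075_at, 0.66 ± 0.16 for 1371643_at and 0.41 ± 0.18 for 1371150_at, and the last did not pass when every probe set was tested on its own (limma adjusted p = 0.0449, 0.0353 and 0.19 in that order). Over the 11 samples the pairs of these probe sets had r between 0.835 and 0.945, as a description. The call was lost in limma without casein pool 2 (adjusted p = 0.0924), casein pool 3 (0.0667), casein plus E2 pool 1 (0.156), soy pool 1 (0.0531), soy pool 2 (0.0881), soy pool 3 (0.0933), soy plus E2 pool 1 (0.0821) or soy plus E2 pool 2 (0.0874). It was also lost in limma with each array centred on its median (adjusted p = 0.0533) and with quantile normalization (0.0607). The change stayed between 0.50 and 0.71 over all 12 single omissions, with or without the call. Without the 3 arrays rich in liver or muscle transcripts the change was 0.44 and the call was lost. Casein pool 1, itself with a muscle mean of 1.73, was then the only casein sample left.

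Epithelial markers moved in the same direction as Ccnd1. Of 13 luminal markers 6 rose with E2, and their mean lay between -0.01 and 0.52 in E2 samples and between -1.42 and -0.03 without E2. Of 8 basal markers 4 rose (means between -0.16 and 0.37 with E2, and between -0.98 and 0.04 without). Soy pool 3, lowest of all samples in Ccnd1, was also lowest in the luminal (-1.42) and basal (-0.98) means. Not all samples followed the luminal order: soy plus E2 pool 1 had a luminal mean of 0.48 and Ccnd1 at 0.02. Casein pool 1 had -0.10 and 0.17. The basal means of these samples were -0.16 and 0.04. The part of epithelial content in the Ccnd1 change was not tested. In the same split by bacterial controls, with 1 array with E2 on the high side of each diet, the E2 difference of Ccnd1 was 0.566 in casein and 0.988 in soy among high arrays, and 0.588 in soy among low ones.

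**Figure D2:**
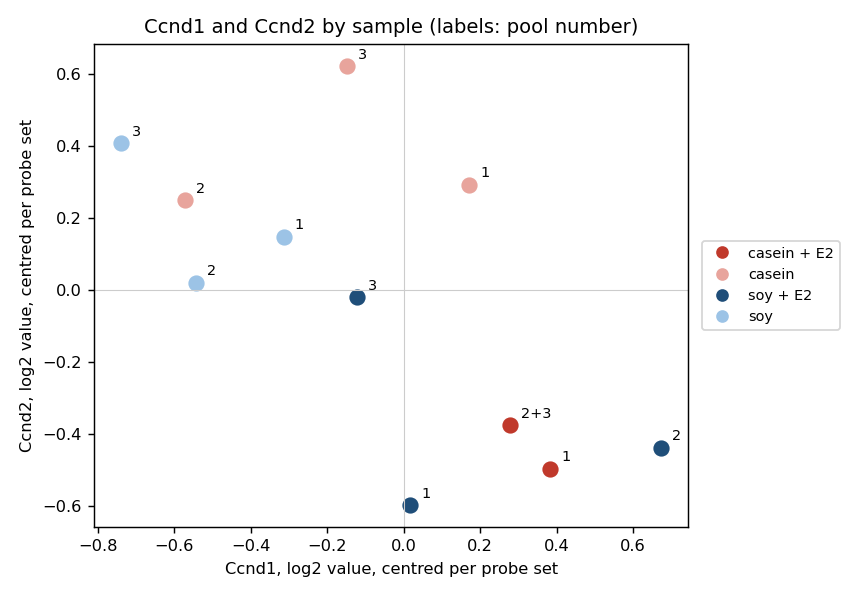
Ccnd1 (x axis) against Ccnd2 (y axis), both as centred log2 values, with 1 point per sample coloured by group and labelled by pool number. The E2 samples sit to the lower right, apart from soy + E2 pool 3 (-0.12 and -0.02), which lies nearest to the samples without E2.

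The difference of Ccnd1 minus Ccnd2 within a sample shows both shifts at once. It was 0.88 and 0.66 in casein plus E2, against -0.12, -0.82 and -0.77 in casein. It was 0.62, 1.11 and -0.10 in soy plus E2, against -0.46, -0.56 and -1.15 in soy. All 5 E2 samples lay above all 6 others, though soy plus E2 pool 3 and casein pool 1 differed by only 0.02. This pair was chosen after its values were seen, as the called rise and the called fall, and Ccnd2 alone already kept these samples apart. The separation thus follows from the choice and adds no evidence. The centred values do not say which cyclin was more abundant in any sample.

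Ccnd3 encodes cyclin D3, which in many tissues accompanies differentiation. It was -0.14, -0.27 and -0.06 in soy plus E2, against 0.32, 0.10 and 0.36 in soy, and these groups did not overlap. In casein-fed rats it was 0.17 and -0.05 with E2, against 0.02, 0.27 and -0.02 without, and the groups overlapped. The E2 effect was -0.41 ± 0.11 in soy-fed rats (limma adjusted p = 0.116) and -0.03 ± 0.13 in casein-fed rats (adjusted p = 0.933), and the average was -0.22 ± 0.09 (adjusted p = 0.123), so none passed. The difference between the diets was -0.38 ± 0.17 (95% interval -0.77 to 0.003, adjusted p = 0.754). The mean of 8 macrophage markers was -0.23, -0.40 and -0.11 in soy plus E2, against 0.72, 0.37 and 0.47 in soy, and its part in the Ccnd3 values was not tested.

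**Figure D3:**
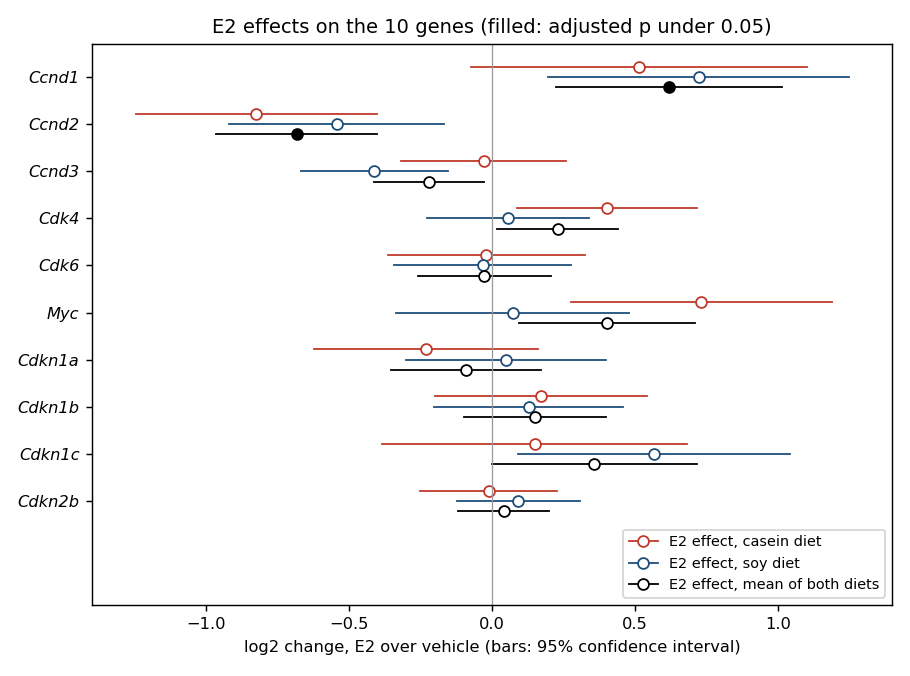
E2 effect on each of the 10 genes (x axis, log2 change of E2 over vehicle) in casein-fed rats, in soy-fed rats and averaged, with 95% confidence intervals as bars and filled points for an adjusted p under 0.05. The filled points are the averages of Ccnd1 (0.62) and Ccnd2 (-0.68), and Myc and Cdk4 have larger estimates in casein-fed than in soy-fed rats.

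Myc and Cdk4 had higher values with E2 in casein-fed rats and nearly equal means in soy-fed rats, without passing the test. Myc, a transcription factor that heterodimerizes with Max, was 0.19 and 0.52 in casein plus E2, against -0.39, -0.75 and 0.01 in casein. It was -0.01, 0.08 and -0.10 in soy plus E2, against -0.26, 0.10 and -0.09 in soy. The groups were apart in casein and overlapped in soy. The E2 effect on Myc was 0.73 ± 0.20 in casein-fed rats (limma adjusted p = 0.0889), 0.07 ± 0.18 in soy-fed rats (adjusted p = 0.865) and 0.40 ± 0.14 on average (adjusted p = 0.0856). Casein pool 3 had the highest Myc of the casein pools (0.01), so leaving it out raises the E2 effect, and it was also rich in liver transcripts. Without it both the casein effect (adjusted p = 0.0459) and the average (0.0282) passed in limma. With all 12 arrays kept separate they passed too in limma (adjusted p = 0.0221 and 0.0367). That setting counts the nearly identical casein plus E2 pools 2 and 3, at 0.54 and 0.50 in Myc, as separate samples. It also called 1369 and 2641 of all genes, against 346 and 1741. With array weights the casein effect passed in limma (adjusted p = 0.0281), where 1408 of all genes were called against 346.

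Cdk4, a kinase that D-type cyclins activate, was 0.31 and 0.11 in casein plus E2, against -0.15, -0.27 and -0.17 in casein. It was -0.02, 0.06 and 0.02 in soy plus E2, against 0.24, -0.28 and -0.07 in soy. The casein groups were apart, and the soy plus E2 pools lay inside the range of the soy pools. The E2 effect was 0.40 ± 0.14 in casein-fed rats (limma adjusted p = 0.153), 0.06 ± 0.13 in soy-fed rats (adjusted p = 0.844) and 0.23 ± 0.09 on average (adjusted p = 0.144). The average passed in limma without soy pool 1, the highest soy pool (adjusted p = 0.0347), and with array weights (0.0188), which called 3318 of all genes against 1741. With the split by bacterial controls as a term in the fit, the averages of Cdk4 (0.29, adjusted p = 0.046) and Cdkn1c (0.46, adjusted p = 0.0471) also passed, which made 4 of the 10.

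The Cdk4 promoter is shown because in human cells CDK4 is a described target of MYC, which binds the E-box CACGTG. RefSeq sequence of assembly GRCr8 was present for 5 of the 10 genes, Ccnd3, Cdk4, Cdkn1a, Cdkn1b and Cdkn2b. The window runs from 250 bases before to 50 after the annotated start, here chr7:64771203-64771502 on the plus strand, and capitals mark the E-box.
Cdk4: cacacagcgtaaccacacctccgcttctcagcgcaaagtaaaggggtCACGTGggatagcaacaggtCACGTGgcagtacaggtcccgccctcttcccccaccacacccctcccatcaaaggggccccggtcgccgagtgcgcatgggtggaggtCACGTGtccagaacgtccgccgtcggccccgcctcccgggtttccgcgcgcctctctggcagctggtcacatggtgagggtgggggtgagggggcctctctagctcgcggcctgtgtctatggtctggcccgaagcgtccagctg
The motif occurred 3 times, with its first base 203, 183 and 95 bases before the start, and it reads the same on both strands. Of 33469 promoter windows of this length 6.42% held CACGTG at least once and 0.0568% at least 3 times, and none of the other 4 windows held it. The estrogen response element, GGTCA and TGACC spaced by 3 bases and searched on both strands, was in none of the 5 windows and in 0.0269% of all windows. The GC box GGGCGG, searched on both strands, was in 4 of the 5 and in 33.1% of all windows. These matches describe letters in the reference and do not show binding in these glands.

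The difference of the E2 effects between the diets, soy minus casein, asks whether soy changed the response. None of the 10 genes passed it in limma, where 0% of all genes passed. Myc had the smallest p of the 10, at -0.66 ± 0.27 (95% interval -1.27 to -0.05, unadjusted p = 0.0374, adjusted p = 0.754). It was the 1 gene of 10 with an unadjusted p under 0.05, against 6.53% of all genes. Without casein pool 2, where Myc was lowest of all samples, the difference was -0.48 (adjusted p = 0.547). In the split by bacterial controls the E2 difference of Myc was 0.57 in casein (1 array against 3) and 0.338 in soy (1 against 1) among high arrays, and -0.062 in soy (2 against 2) among low ones. For Ccnd1 (0.21, 95% interval -0.58 to 1.0) and Ccnd2 (0.28, 95% interval -0.28 to 0.84) the intervals left room for sizeable differences in either direction.

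In single diets no member passed the test. In casein-fed rats 0 of 10 passed in limma, against 2.43% of all genes, and 3 had an unadjusted p under 0.05 (Ccnd2, Myc and Cdk4), against 19.6% of all genes. The casein groups did not overlap for 5 of the 10, against 39.8% of all genes. In soy-fed rats 0 of 10 passed, against 0.218%, and 4 had an unadjusted p under 0.05 (Ccnd1, Ccnd2, Ccnd3 and Cdkn1c), against 20.6%. The soy groups did not overlap for these 4 genes, against 24.6% of all genes.

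None of the kinase inhibitors of the Cip and Kip family passed in the fit without array weights or the bacterial control split as a term. Cdkn1c was 0.46 and -0.27 in casein plus E2, against -0.02, -0.15 and 0.02 in casein, so the E2 samples lay on both sides. It was 0.26, 0.31 and 0.47 in soy plus E2, against 0.19, -0.30 and -0.55 in soy, and these groups did not overlap. Its E2 effect was 0.57 ± 0.21 in soy-fed rats (limma adjusted p = 0.182), 0.15 ± 0.24 in casein-fed rats (adjusted p = 0.787) and 0.36 ± 0.16 on average (adjusted p = 0.173). With array weights the soy effect passed in limma (0.63, adjusted p = 0.0383), and with the bacterial control split as a term the average did (0.46, adjusted p = 0.0471). Without casein plus E2 pool 1 the average was 0.175, with 1 sample left in that group. Cdkn1c is an imprinted gene whose product p57 holds cells out of the cycle.

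Cdkn1a, a main p53 target, had an average E2 effect of -0.09 ± 0.12 (limma adjusted p = 0.655). It was -0.09 and -0.10 in casein plus E2, against 0.24, -0.08 and 0.25 in casein, and -0.12, 0.21 and 0.11 in soy plus E2, against 0.34, -0.18 and -0.12 in soy. The casein groups were apart by a margin of 0.01, and the soy groups overlapped. Its 2 probe sets disagreed in sign, at -0.20 ± 0.14 for 1387391_at and 0.01 ± 0.12 for 1388674_at, and had r = 0.546 over the 11 samples.

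Cdkn1b encodes p27, which accumulates in resting cells. It was -0.14 and -0.02 in casein plus E2, against -0.03, -0.58 and -0.14 in casein. It was 0.27, 0.19 and 0.14 in soy plus E2, against -0.13, 0.25 and 0.09 in soy. The values with and without E2 overlapped in both diets, and the average E2 effect was 0.15 ± 0.11 (limma adjusted p = 0.421). Its 2 probe sets had r = 0.852 and the same sign.

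Cdkn2b and Cdk6 were the least variable of the 10 genes. Cdkn2b, an inhibitor induced by TGF-beta in epithelial cells, stayed between -0.07 and 0.16 with E2 and between -0.12 and 0.15 without, and its SD over the 11 samples was larger than that of 7.6% of genes. Its average E2 effect was 0.04 ± 0.07 (95% interval -0.12 to 0.20, limma adjusted p = 0.76). Cdk6 stayed between -0.02 and 0.14 with E2 and between -0.16 and 0.41 without, with an average E2 effect of -0.03 ± 0.10 (adjusted p = 0.893). A probe set near background can also vary little, depending on how values were summarised, which is not given. The centred values do not show whether these were near background.

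The soy diet moved none of the 10 genes past the test. In soy against casein without E2, 0 of 10 passed in limma, 0 had an unadjusted p under 0.05 (10.4% of all genes) and the groups overlapped for all 10, where 13.3% of genes had no overlap. The changes lay between -0.35 (Ccnd1, 95% interval -0.88 to 0.18) and 0.32 (Cdkn1b, 95% interval -0.01 to 0.65). In soy plus E2 against casein plus E2, 0 of 10 passed, against 0.00703% of all genes, and 0 had an unadjusted p under 0.05 (5.1% of all genes). Cdkn1b was higher and Ccnd3, Cdk4 and Myc were lower in soy plus E2 without overlap, 4 of 10 against 23.3% of all genes, and all 4 had adjusted p = 0.999.

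Cdkn1b had the smallest p of the 10 for soy without E2 and for the soy effect averaged over both E2 levels, while with E2 the smallest was that of Myc (unadjusted p = 0.107). Averaged over both E2 levels its soy effect was 0.30 ± 0.11 (unadjusted p = 0.0245, limma adjusted p = 0.685), against 7.07% of all genes with an unadjusted p under 0.05. Without E2 the soy effect was 0.32 ± 0.15 and with E2 it was 0.27 ± 0.17. Without casein pool 2, the lowest sample at -0.58, the effect without E2 was 0.15 (adjusted p = 0.591). Without the 3 arrays rich in liver or muscle transcripts it was 0.00772, with casein pool 1 as the only casein sample left.

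Other genes of cell cycle entry gave the wider setting for the E2 average, in which 6.73% of all genes rose. Of 24 measured genes of the retinoblastoma and E2F axis 6 rose and 0 fell, with a median change of 0.14. Rb1, the retinoblastoma gene itself, rose by 0.82 ± 0.13 (limma adjusted p = 0.00861), the S-phase cyclin gene Ccna2 by 0.74, E2f8 by 0.64, the retinoblastoma relative Rbl1 by 0.36 and the kinase subunit Cks1b by 0.35. The E-type cyclins, which act next after the D-type cyclins, did not pass, with Ccne1 at 0.29 (adjusted p = 0.13) and Ccne2 at 0.24 (adjusted p = 0.168). These 2 were named after their values were seen.

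Genes of DNA replication and of mitosis were counted next. Of 17 E2F target genes of S phase 5 rose and 0 fell (median 0.39), with the primase gene Prim1 at 0.80, the helicase genes Mcm7, Mcm5 and Mcm6 at 0.54, 0.53 and 0.50, and Gins1 at 0.42. Of 15 mitotic genes 9 rose and 0 fell (median 0.56), with Cdk1 at 0.89, Mki67 at 0.84, Aurka at 0.70, Nusap1 at 0.70 and Top2a at 0.64. These rises stood beside the luminal and basal marker means given above for Ccnd1, and their part was not tested. Of the 1741 genes called for the E2 average, nearly all calls were lost without the 3 arrays rich in liver or muscle transcripts. Few if any calls in these lists could remain there. Casein pool 1 was then the only casein sample, so this loss cannot be tied to those transcripts.

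Genes tied to Myc and to p53 were read against the same 6.73% of all genes that rose. Of 22 Myc target genes 3 rose and 0 fell (median 0.12), among them the transferrin receptor gene Tfrc at 2.23 ± 0.27 (limma adjusted p = 0.00487), which iron supply also controls, the ribosome assembly gene Ppan at 0.41 and the nucleolin gene Ncl at 0.27. The median of these 22 genes was 0.21 in casein-fed and 0.00154 in soy-fed rats, and 0 of the 22 passed the test of the difference between diets in limma. Other lists were also higher in casein: the retinoblastoma and E2F axis (0.198 against 0.101), E2F targets (0.445 against 0.311) and Myc partners (0.0631 against 0.000962). Mitotic genes were lower in casein (0.492 against 0.607), and p53 targets nearly equal (-0.0567 against -0.063). The medians of all genes were 0.0165 and -0.00249. Of 12 Myc network partners 1 rose, Zbtb17 at 0.26, and 0 fell. Of 14 p53 target genes 1 rose, Perp at 0.95, which is also a component of epithelial desmosomes, and 0 fell (median -0.03). With 1 gene each, the partner and p53 lists were near that background, and no difference between lists was tested.

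**Figure D4:**
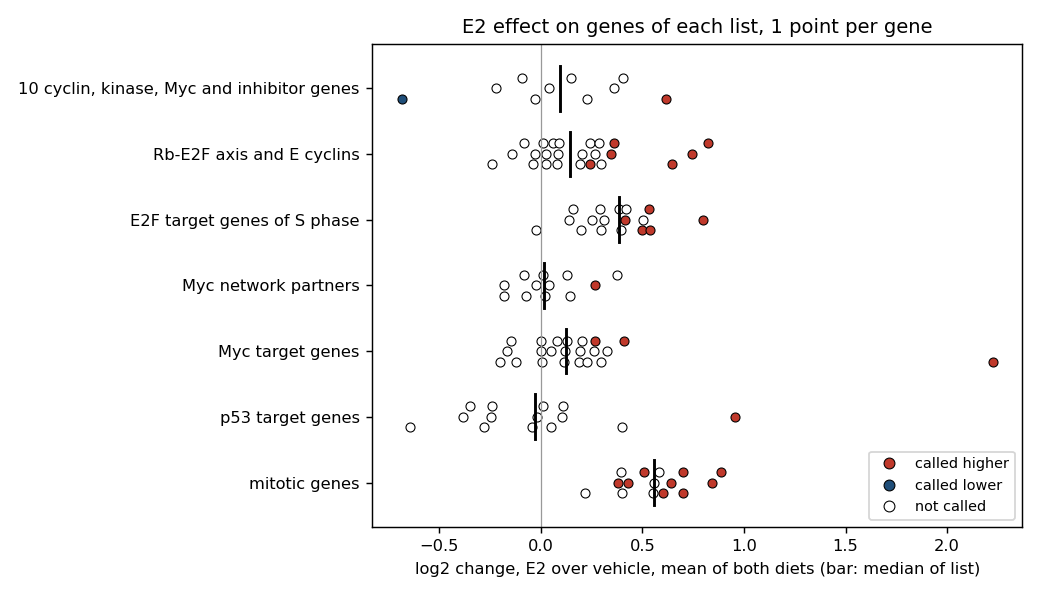
Average E2 effect (x axis, log2 change of E2 over vehicle) of each gene in the 10-gene set and in 6 lists of related genes, with 1 point per gene, a black bar for the median and filled points for an adjusted p under 0.05. The mitotic genes have a median of 0.56 and all 15 lie above 0, while the 10 cyclin, kinase, Myc and inhibitor genes spread from -0.68 to 0.62.

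The genes most like each member over the 11 samples were named by Pearson's r among all named genes, as a description of profiles that share arrays. For Ccnd1 these were Alpl (r = 0.991), Lig1 (0.982), a DNA ligase gene of replication, and Vars1 (0.977). For Ccnd2 they were Pcyt2 (0.944), Stac (0.941) and Irgm2 (0.939). For Ccnd3 they were Ccr1 (0.966), Serping1 (0.944) and Cd52 (0.938), of which Ccr1 and Cd52 are genes of leukocytes. For Myc they were Cnot7 (0.963), Nol8 (0.924) and Tesk2 (0.917), and for Cdk4 they were Cenpv (0.921), Nelfe (0.915) and Etv5 (0.915). For Cdk6 they were Gprin1, Ubox5 and Dhrs9 (0.927 to 0.943). For the inhibitors they were Eid1, Mff and Rhoj for Cdkn1a (0.907 to 0.917), Trappc14, Otud5 and Uspl1 for Cdkn1b (0.952 to 0.961), Cbx6, Ctc1 and Heph for Cdkn1c (0.909 to 0.911) and Bpifa2, Nts and C5h8orf34 for Cdkn2b (0.843 to 0.892).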

How the data were processed

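RNA (8 µg per array, per the labels' protocols) of abdominal mammary glands was hybridised to 12 Affymetrix rat arrays. The submitters' processing notes name GCOS, software of the array maker, with no version. The range of the deposited values was taken to mean a log2 scale, on which every fold change rests. How they were summarised and normalized, and their log base, is not given in the sources used here. Each probe set was centred by the authors or their software on its median over the arrays (largest median 5e-07), as the deposited values show. Array medians lay between -0.0246 and 0.0112. A description field names hepatic expression, while the source field names mammary gland.

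The platform annotation gave 1 gene to 20826 probe sets, several to 436 and none to 9780, beside 57 controls, and 20758 matched the GRCr8 gene table with 0 symbols changed. Probe sets of a gene were averaged (14217 genes). Casein plus E2 pools 2 and 3 were averaged. The 4 group means were fitted in limma 3.58.1 (R 4.3.3, eBayes without a trend) over 11 samples, leaving 7 residual degrees of freedom, and 7 contrasts were tested two-sided at a Benjamini-Hochberg adjusted p under 0.05. Members, lists and tests were chosen with earlier results of these data known. Named genes were the 10 members, up to 5 called genes per list by size of the E2 average, and the 3 genes most like each member. Code was tested on simulated data. Same-numbered pools of different groups had correlations of deviations from group means between -0.42 and 0.46, so pool numbers were not treated as pairs.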

Additional observations from a re-analysis of the deposited data

How the results depend on the processing

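The 61 reported changes of members were recomputed under 1346 combinations of result and setting. Of these, 1257 kept direction and side of the threshold, 14 lost a call, 19 gained one and 56 changed sign. The soy averages of members other than Cdkn1b are not reported here and were left out of these counts, and some of them also changed sign. None of the sign changes was of a called change, and the largest such change was 0.208 as reported. The average E2 rise of Ccnd1 and fall of Ccnd2 kept their directions in every setting run. Members called for the E2 average numbered 1 with median centring (1714 of all genes called) or quantile normalization (1834) and 4 with the bacterial control split as a term (1903). The calls of Ccnd1 and Ccnd2 were lost without the 3 liver- or muscle-rich arrays, a setting chosen after seeing the data. It left casein pool 1 as the only casein sample. In casein-fed rats 2 members were called with 12 separate arrays (1369 of all genes called), with array weights (1408) and with the replicate block (821), and 1 with quantile normalization (643). In soy-fed rats 3 members were called with array weights, where 2034 of all genes were called against 31 as reported. Pool number as a replicate block, on 12 separate arrays, gave 821 genes for E2 in casein-fed rats, 1 for the interaction and 3 for soy with E2, and it gave 26 for E2 in soy-fed rats, against 226 on the same 12 arrays without the block. All other counts are of genes called. With 12 separate arrays they were 2641 (E2 average), 1369 (E2 in casein), 226 (E2 in soy), 4 (interaction) and 13 (soy with E2). With array weights they were 3318, 1408, 2034, 5 and 7 for these contrasts, 1588 for soy without E2 and 24 for the soy average. Quantile normalization gave 643 (E2 in casein), 246 (E2 in soy) and 7 (soy with E2). The probe set of largest SD gave 2 and separate probe sets 0 for soy with E2. Only the contrast's groups gave 200 (E2 in casein) and 9 (E2 in soy). The bacterial control split gave 73 (E2 in soy) and 1 (interaction). As reported the counts were 1741 (E2 average), 346 (E2 in casein), 31 (E2 in soy) and 0 (interaction). Most calls of the E2 contrasts were lost without the 3 arrays, with 1 casein sample left. Leaving out 1 array at a time, genes called lay between 313 and 2334 (E2 average; members called 0 to 2), 5 and 590 (E2 in casein; members 0 to 1), 0 and 760 (E2 in soy; members 0 to 1), 0 and 327 (soy without E2), 0 and 3 (soy with E2) and 0 and 1 (soy average).

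Sign changes among the reported changes were as follows. With array weights Cdk6 was 0.0599 for the E2 average, 0.0594 for E2 in casein, 0.0604 for E2 in soy and 0.000965 for the interaction, Ccnd3 was 0.0226 for E2 in casein, Myc -0.0478 for E2 in soy and Cdk4 -0.0477 for soy without E2. The Cdk6 interaction was 0.0142 with 12 separate arrays, with and without the replicate block. Single probe sets gave Cdkn1a -0.117 for E2 in soy and 0.0129 for the E2 average, and the one of largest SD -0.117 for E2 in soy. Quantile normalization gave Cdk6 0.00618 for E2 in casein and Cdkn1b 0.0428 for the interaction. The bacterial control split gave Cdk6 0.00519 for E2 in casein and 0.0019 for soy without E2, Cdkn1b 0.0307 for the interaction, and Cdkn1a 0.0505 and Cdkn1c 0.102 for soy without E2. Without the 3 arrays E2 in casein gave Ccnd3 0.0399, Cdk6 0.0702, Cdkn1b -0.0489 and Cdkn2b 0.0261, E2 in soy gave Cdk4 -0.0663 and Cdkn1a -0.0467, the interaction gave Cdkn1b 0.267, and soy without E2 gave Cdk6 0.124 and Cdkn2b 0.0226. Single omissions spanned 0 for E2 in casein in Ccnd3 (-0.138 to 0.0594), Cdk6 (-0.139 to 0.142), Cdkn1c (-0.217 to 0.184) and Cdkn2b (-0.111 to 0.0429). For E2 in soy they did so in Cdk4 (-0.0663 to 0.195), Cdk6 (-0.1 to 0.0141), Myc (-0.016 to 0.161) and Cdkn1a (-0.0467 to 0.213). For the E2 average they did so in Cdk6 (-0.0864 to 0.054) and Cdkn2b (-0.00988 to 0.0671), and for the interaction in Ccnd1 (-0.034 to 0.402), Cdk6 (-0.176 to 0.105) and Cdkn1b (-0.151 to 0.123). For soy without E2 this held for Cdk6 (-0.151 to 0.13), and for soy with E2 for Ccnd1 (-0.383 to 0.0146), Ccnd2 (-0.082 to 0.207), Cdk6 (-0.0686 to 0.0343) and Cdkn2b (-0.00469 to 0.139). The cause of these changes was not tested. Centred values give no signal over background, so what dim signal limits could not be judged.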

Other observations

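Casein pool 2 was the most extreme sample for several of the 10 genes. It had the lowest Myc (-0.75) and Cdkn1b (-0.58) and the highest Cdk6 (0.41) of the 11 samples, and the lowest Ccnd1 (-0.57) of the casein pools. Its mean over 11 skeletal muscle markers was 3.63, and its bacterial control mean (1.113) was the highest of the 12 arrays. The part of either in these values was not tested. Soy pool 2, with a muscle mean of 3.86, had Myc at 0.10, Cdkn1b at 0.25 and Cdk6 at -0.09. It had the lowest Cdk4 (-0.28), Cdkn1a (-0.18) and Cdkn2b (-0.12) of the 11 samples. Both pools had low luminal means (-1.01 in casein pool 2 and -0.57 in soy pool 2) and low Ccnd1 (-0.57 and -0.54). Other pools did not follow the muscle means. Soy pool 3, with a muscle mean of -0.46, was lower in both (-1.42 and -0.74). Casein pool 1, with a muscle mean of 1.73, had a luminal mean of -0.10 and Ccnd1 at 0.17.

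Rb1 was the gene of the retinoblastoma and E2F list with the largest E2 average, and its E2 samples did not overlap the others. Its E2 effect was 0.97 ± 0.19 in casein-fed rats (limma adjusted p = 0.038) and 0.68 ± 0.17 in soy-fed rats (adjusted p = 0.0964), with a difference of -0.29 ± 0.25 between them (adjusted p = 0.848). Of its relatives, Rbl1 was at 0.36 on average (adjusted p = 0.0409) and Rbl2 at -0.09 (adjusted p = 0.654).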
